A study of Mus musculus with 8 samples.

Results

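The 9 genes described here encode stretch-sensor proteins of striated muscle: Ankrd1, Ankrd2 and Ankrd23, the LIM-domain genes Csrp3, Fhl1 and Fhl2, the Xin-repeat genes Xirp1 and Xirp2, and Nrap. They were taken by gene symbol from a table of 55679 genes, and all 9 were found there once each. The 8 libraries are of left ventricles from male wild-type (WT) C57BL/6J mice. In 4 of them (control) the mice had received saline for 7 days, and in 4 (ANG II) angiotensin II at 1500 ng/kg/min for 7 days, from a pump under the skin. ANG II constricts vessels, and the study used it to raise blood pressure and enlarge the ventricle. The hearts had been flushed with saline, and ages were not given in the sources used here. The study's methods speak of biological replicates, more per group than the 4 analysed here, but the labels only number the libraries, so p-values measure the spread between these libraries. The extraction notes name cells of another origin, whereas cardiomyocyte markers were abundant in all 8 libraries, as given below. Below, mean ± SD is over the 4 libraries of a group.

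Cardiac muscle cells feel load through proteins that sit on the titin spring, at the Z-disc and at the intercalated disc, where the ends of neighbouring cells join. Several of these proteins bind both structural partners and transcription regulators and can move to the nucleus, so they are regarded as links between mechanical load and gene expression. Ankrd1 (cardiac ankyrin repeat protein) is the best known of them as a gene induced in hypertrophied hearts. The study itself selected Ankrd1 as a marker of hypertrophy, on data that may include these libraries, so its rise here is not independent evidence for that choice.

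In short, 4 of the 9 genes rose with ANG II, Ankrd1, Xirp2, Fhl1 and Ankrd2, and 0 fell. The other 5, Fhl2, Csrp3, Xirp1, Ankrd23 and Nrap, were not called. Calls needed an adjusted p-value under 0.05 and an absolute log2 fold change above 0.5 in limma on log2(FPKM + 1), with Benjamini-Hochberg adjustment over 19364 tested genes. FPKM counts fragments relative to transcript length and sequencing depth, so levels can be compared between genes. By the same rule 14.0% of all tested genes were called higher and 1.41% lower. At an unadjusted p-value under 0.05, 5 of the 9 genes were higher in limma, Nrap being the fifth, and 0 lower, beside 35.9% and 7.09% of all tested genes, and limma's voom on fragments recovered from the FPKM values called 4 higher and 0 lower (18.9% and 2.03% of all tested genes). The 4 genes were also those whose groups were fully separate, all with ANG II higher, as were 28.7% of all tested genes, while 5.06% were separate and lower.

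The libraries held 14455833 to 16565035 fragments each, read from the steps of the FPKM values. Mitochondrially encoded genes took 26.3 to 26.9% of fragments in control and 19.2 to 21.8% in ANG II, and the tested genes had a median log2 fold change of 0.15. When libraries were scaled by median-of-ratios this became 0.0025, with 8.65% of genes called higher and 4.16% lower, and quantile normalization called 7.3% higher and 5.09% lower. Of 16 cardiomyocyte markers, all were tested, 0 were called higher (also 0 by voom) and 2 lower, Myh6 and Tnni3 (2 by voom). At an unadjusted p-value under 0.05, 1 was higher and 8 were lower (35.9% and 7.09% of all tested genes), and 9 were lower with separate groups (5.06% of all); Myl2, Myl3, Pln, Atp2a2 and Ckm passed the adjusted p-value with log2 fold changes of -0.25 to -0.49, under the fold threshold, as did Slc8a1 in the other direction (0.38), and Tnnc1 was separate and higher (0.13). The summed level of the 16 was 63784 to 64892 FPKM in control and 50436 to 53094 FPKM in ANG II. Of 11 fibroblast markers 10 were called higher (summed level 1252 to 1741 against 4310 to 4827 FPKM), as were 9 of 9 macrophage markers (297 to 379 against 675 to 945 FPKM). By the same rule 14.0% of all tested genes were. Of 8 endothelial and 7 smooth muscle markers 1 each was called higher (median log2 fold changes 0.18 and 0.04), near the 14.0% of all tested genes. The other fibroblast marker, Gsn, with the highest control level of its list, averaged 819 FPKM in the controls and 587 FPKM under ANG II (log2 fold change -0.50, limma adjusted p = 0.028) and was not called, its groups overlapping. In bulk tissue a change in the number of cells of a type and a change of RNA per cell cannot be told apart, and the part of these shifts in the results below was not tested.

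The stretches shown next let the promoters of genes that rose be set beside those of relatives that did not. RefSeq (GRCm38.p6) gave 12 promoter windows for 8 of the 9 genes, and Xirp1 had no entry. The 250 bases before each start were searched on both strands for CATTCC (the M-CAT element, bound by TEAD factors), for the CArG box (bound by SRF) and for TATAAA. Of 32851 promoters in the table, 12.6% held CATTCC, 1.47% a CArG box and 12.4% TATAAA. Each of the following lines has 30 bases, 5′ to 3′ on the gene's strand, with the motif in capitals. For Ankrd1, which reads GGAATG because its CATTCC lies on the opposite strand, the lines are chr19:36120037-36120066 and chr19:36119950-36119979 (minus strand). The Ankrd23 line is chr1:36535842-36535871 (minus strand), the Fhl1 line chrX:56779571-56779600 (plus strand), and the Fhl2 lines chr1:43163973-43164002 and chr1:43196838-43196867 (minus strand).
Ankrd1, M-CAT at 210 to 205 bases before the start: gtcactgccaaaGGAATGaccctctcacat
Ankrd1, M-CAT at 123 to 118 bases before the start: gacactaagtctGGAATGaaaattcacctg
Ankrd23, M-CAT at 120 to 115 bases before 1 of 2 starts: cccagtgggccaCATTCCcagaacggtatt
Fhl1, CArG box at 102 to 93 bases before 1 of 2 starts: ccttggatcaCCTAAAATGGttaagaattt
Fhl2, CArG box at 31 to 22 bases before an inner start: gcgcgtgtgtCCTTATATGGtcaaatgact
Fhl2, CArG box at 96 to 87 bases before the outer start: catttagagaCCAAAAAAGGcttgcaggag

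M-CAT letters thus stood before Ankrd1, which rose, and before 1 of the 2 starts of Ankrd23, which was not called. A CArG box stood before 1 of the 2 starts of Fhl1, which rose, and before both starts of Fhl2, which was not called. Neither motif was found in the windows of Ankrd2, Csrp3, Nrap or Xirp2. Of the 250 bases in these windows, 250 for Ankrd1, 250 for the start of Ankrd23 without M-CAT letters, 223 for the outer start of Fhl2, 87 for the start of Fhl1 with the CArG box and 27 for Ankrd2 also lie under GENCODE exons. TATAAA stood 29 to 24 bases before the start of Ankrd2, and on the opposite strand 156 to 151 bases before a start of Fhl1 and 28 to 23 bases before the outer start of Fhl2, which was not called. For Xirp2, one of the genes that rose, the window (chr2:67445752-67446001, GRCm38.p6, plus strand) lay outside annotated exons and held no M-CAT, CArG or TATAAA letters. It is shown whole in lower case because nothing in it was marked.
Xirp2: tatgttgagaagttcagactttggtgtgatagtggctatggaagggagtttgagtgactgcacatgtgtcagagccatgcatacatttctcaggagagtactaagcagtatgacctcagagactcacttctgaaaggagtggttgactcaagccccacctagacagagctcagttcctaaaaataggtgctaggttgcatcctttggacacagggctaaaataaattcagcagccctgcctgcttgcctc

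The levels of the 9 genes covered a wide range. In control the order by mean FPKM was Fhl2, Csrp3, Ankrd1, Xirp2, Nrap, Fhl1, Xirp1, Ankrd23 and Ankrd2, and no pair of neighbours in that order overlapped between libraries. In ANG II, Ankrd1 stood first, ahead of Fhl2 in 3 of 4 libraries with overlapping ranges. Nrap and Fhl1 also overlapped in ANG II, as did Ankrd2 and Ankrd23, each pair in the printed order in 3 of 4 libraries. Among all genes in the table, Ankrd1 moved from rank 106 by mean FPKM in control to rank 32 in ANG II, whereas Fhl2 went from 31 to 34 and Csrp3 stayed at 63. The summed level of the 9 genes was 3420 ± 60.8 FPKM in the controls and 4799 ± 413 FPKM under ANG II (two-sided exact permutation p = 0.0286, which is as small as 4 against 4 can give). Ankrd1 made up 17.0 ± 1.71% of that sum in control and 35.0 ± 2.22% in ANG II, and Fhl2 made up 45.2 ± 2.20% and 31.6 ± 1.28%.

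**Figure D1:**
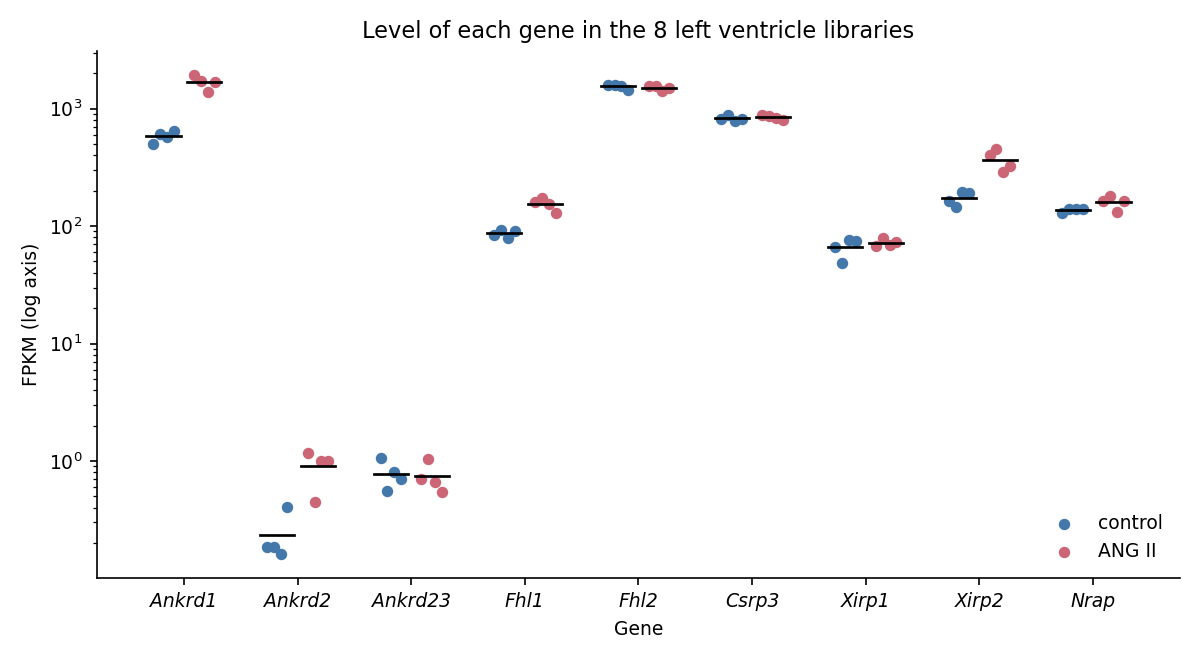
FPKM on a log axis for the 9 genes in 4 control libraries (blue) and 4 ANG II libraries (red), 1 point per library in the order of replicate number, with the group mean as a bar. The points of Ankrd1, Ankrd2, Fhl1 and Xirp2 are separate between the groups, while those of Ankrd23, Fhl2, Csrp3, Xirp1 and Nrap overlap.

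The ankyrin repeat genes form a small family whose products bind the spring region of titin. Ankrd1 (ENSMUSG00000024803, chromosome 19, 36111961 to 36120099, minus strand, GRCm38) was at 504, 604, 569 and 649 FPKM in control libraries 1 to 4. In ANG II libraries 1 to 4 it was at 1946, 1737, 1382 and 1676 FPKM. Every ANG II library was above every control library, and the lowest of them, ANG II 3, was at more than 2 times the highest control. The log2 fold change was 1.53 (SE 0.110, 95% interval 1.28 to 1.77, limma adjusted p = 1.41e-05 after Benjamini-Hochberg adjustment), on means of 582 ± 61.04 and 1685 ± 233 FPKM. By fold change it ranked 240 among the 2708 genes called higher. It rested on 13580 to 54955 fragments per library, and none of its 50-base words occurred in transcripts of other genes.

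Ankrd2, which in skeletal muscle is known as a stretch-responsive gene, was barely detected in the ventricle. Control libraries held 0.185, 0.184, 0.162 and 0.409 FPKM, and ANG II libraries held 1.18, 0.448, 1.005 and 1.007 FPKM. ANG II 2 lay just above control 4, and the other ANG II libraries were clearly higher. These values stand for 3, 3, 3 and 7 fragments in control and 20, 8, 17 and 18 fragments in ANG II, so 3 controls rested on only 3 fragments each. Pooled over each group, 16 and 63 fragments gave a ratio of 3.86 per library depth (95% exact Clopper-Pearson interval 2.20 to 7.15, counting error only). On the log2(FPKM + 1) scale, which understates changes at such levels, the log2 fold change was 0.62 (SE 0.140, limma adjusted p = 0.00757), and it was 1.58 with a pseudocount of 0.1. Quantile normalization brought it to 0.47, below the fold threshold.

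Ankrd23, the third ankyrin repeat gene of the family, was also rare, though every control library held more of it than of Ankrd2. It was at 1.06, 0.55, 0.808 and 0.70 FPKM in the controls and at 0.706, 1.05, 0.664 and 0.545 FPKM in ANG II, with 12 to 25 fragments per library. The groups overlapped almost entirely. The log2 fold change was -0.03 (95% interval -0.32 to 0.25, limma adjusted p = 0.872). Its level is uncertain: Gm42417 covers 78.2% of its exons on the same strand and shares 75.0% of its 50-base words, and was listed at 0 in all 8 libraries. Ankrd1 made up 99.8 ± 0.0521% of the summed FPKM of the family in control and 99.9 ± 0.015% in ANG II.

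The FHL genes encode LIM-domain adaptors that bind the sarcomere and signalling proteins. Fhl1 (ENSMUSG00000023092, chromosome X, 56731787 to 56793346, plus strand, GRCm38) was at 84.5, 92.9, 78.8 and 91.6 FPKM in the controls and at 162, 174, 155 and 130 FPKM in ANG II. The groups were well apart, with ANG II 4 the lowest of its group. Its log2 fold change was 0.82 (SE 0.0899, 95% interval 0.62 to 1.02, limma adjusted p = 1.40e-04 after Benjamini-Hochberg adjustment). Fhl2 (ENSMUSG00000008136, chromosome 1, 43123074 to 43196984, minus strand), the most abundant of the 9 genes in control, was at 1591, 1593, 1572 and 1429 FPKM in the controls and at 1566, 1572, 1416 and 1502 FPKM in ANG II. Its groups overlapped, and its log2 fold change was -0.03 (95% interval -0.17 to 0.11, adjusted p = 0.753). That sign turned when the libraries were scaled to the cardiomyocyte markers (0.17) or without ANG II 3 (0.0015), whereas median-of-ratios scaling and quantile normalization gave -0.26 and -0.23.

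Because a ratio within a library does not depend on how libraries are scaled, related genes were also compared with each other. In the control libraries Fhl2 was 18.8, 17.1, 19.9 and 15.6 times the level of Fhl1. In the ANG II libraries it was 9.69, 9.05, 9.16 and 11.6 times that level. The log2 ratio of Fhl1 to Fhl2 went from -4.15 ± 0.156 to -3.30 ± 0.164, a difference of 0.86 with no overlap (two-sided exact permutation p = 0.0286, also 0.0286 after Benjamini-Hochberg adjustment over the 3 ratios compared). These 2 FHL genes thus changed unequally, whatever the scaling.

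Csrp3 encodes muscle LIM protein, a Z-disc protein whose loss causes dilated cardiomyopathy in mice. It was at 824, 884, 779 and 818 FPKM in the controls and at 875, 866, 831 and 797 FPKM in ANG II, and the groups overlapped. The log2 fold change of Csrp3 (ENSMUSG00000030470, chromosome 7, 48830398 to 48848033, minus strand, GRCm38) was 0.03, with a narrow 95% interval of -0.10 to 0.16 (limma adjusted p = 0.741 after Benjamini-Hochberg adjustment). With median-of-ratios scaling it was -0.20 (adjusted p = 0.0342) and with cardiomyocyte marker scaling 0.23 (adjusted p = 0.0179), both under the fold threshold. Its spread between libraries was among the smallest of the 9 genes, with a coefficient of variation of 5.23% in control and 4.22% in ANG II.

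The Xin-repeat proteins bind actin at the intercalated disc. Xirp2 (ENSMUSG00000027022, chromosome 2, 67446002 to 67526614, plus strand, GRCm38) was at 165, 144, 195 and 190 FPKM in the controls and at 405, 456, 288 and 326 FPKM in ANG II. All ANG II libraries lay above all controls, and ANG II 3 was again the lowest of its group. Xirp2 rose by 1.07 on the log2 scale (SE 0.146, 95% interval 0.74 to 1.40, limma adjusted p = 4.59e-04 after Benjamini-Hochberg adjustment), and it was 0.84 to 1.27 over the scalings tried. The longest coding sequence of Xirp2 has 3784 codons and its exons gave 25186 to 86942 fragments per library. The antisense gene Gm13601 covers 1.40% of its exon length, and no source says whether counting used strand.

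Xirp1 (ENSMUSG00000079243, chromosome 9, 120013755 to 120023598, minus strand, GRCm38) did not share that rise. It was at 66.5, 48.8, 76.9 and 74.8 FPKM in the controls and at 67.9, 78.7, 68.5 and 73.2 FPKM in ANG II. Apart from control 2, which was the lowest, the 8 libraries were intermixed. Its log2 fold change was 0.13 (95% interval -0.16 to 0.41, limma adjusted p = 0.478 after Benjamini-Hochberg adjustment), and it turned negative with median-of-ratios scaling (-0.10), with quantile normalization (-0.05), without mitochondrially encoded and top 10 genes (-0.02) and without control 2 (-0.01). Xirp2 was 2.48, 2.95, 2.54 and 2.54 times the level of Xirp1 in the control libraries. In the ANG II libraries it was 5.96, 5.79, 4.21 and 4.46 times that level. The log2 ratio of Xirp1 to Xirp2 was -1.39 ± 0.116 in control and -2.33 ± 0.257 in ANG II, a difference of -0.94 (exact two-sided permutation test, p = 0.0286, adjusted 0.0286 over the 3 ratios).

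**Figure D2:**
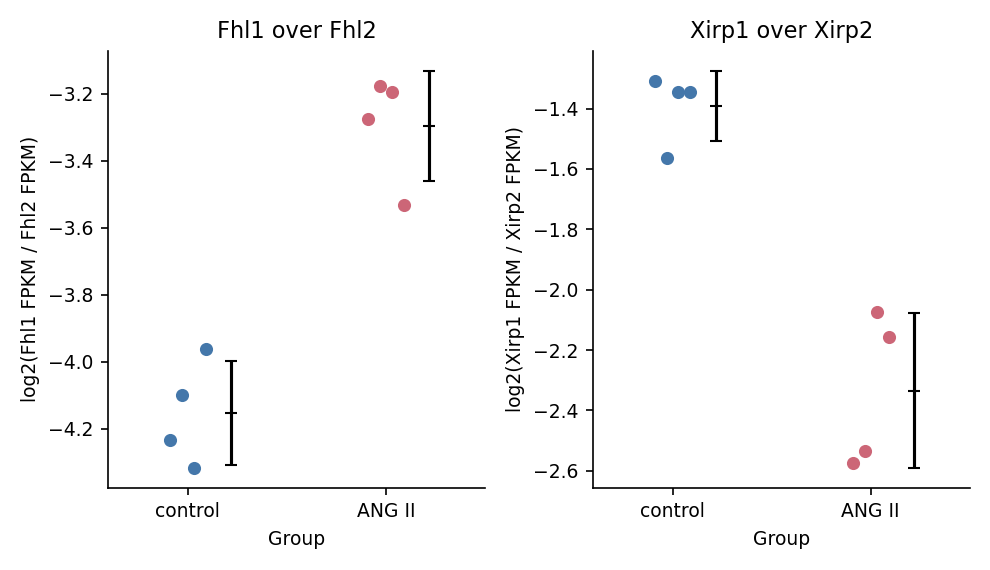
Log2 ratio of FPKM values within each library for Fhl1 over Fhl2 (left) and Xirp1 over Xirp2 (right), 1 point per library (4 control in blue, 4 ANG II in red), with the group mean and SD beside the points. The axes do not start at 0. The ratio is higher in every ANG II library on the left and lower in every one on the right.

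Nrap encodes an anchoring protein related to nebulin that holds actin filaments at the cell ends during myofibril assembly. It was at 130, 139, 140 and 139 FPKM in control, a tight group, and at 163, 181, 132 and 165 FPKM in ANG II. In ANG II 3 it fell within the control range, and in the other 3 ANG II libraries it was above all controls. The log2 fold change of Nrap (ENSMUSG00000049134, chromosome 19, 56320035 to 56390037, minus strand, GRCm38) was 0.21 (95% interval 0.02 to 0.41, limma adjusted p = 0.086 after Benjamini-Hochberg adjustment). Without ANG II 3 it was 0.30 with an adjusted p of 0.00303, still under the fold threshold, and with median-of-ratios scaling it was -0.02. Genes on the opposite strand, Habp2 and Gm17197, cover 6.83% of its exon length.

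**Figure D3:**
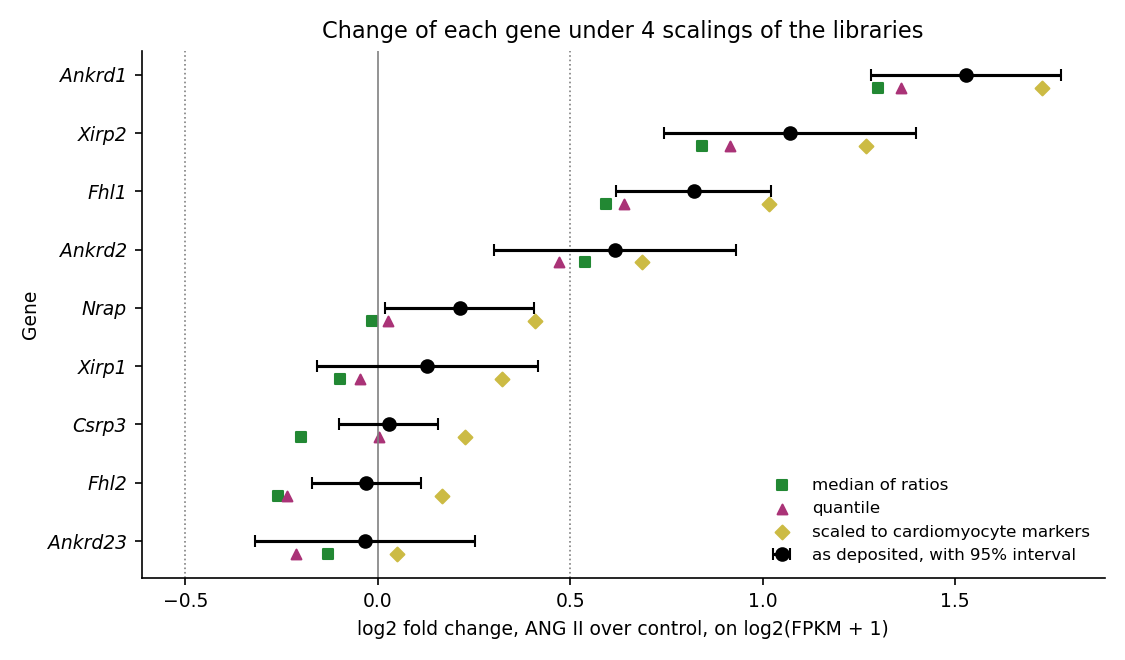
Log2 fold change of ANG II over control on log2(FPKM + 1) for each gene, from 4 control and 4 ANG II libraries. Black points with bars give the values as deposited with their 95% intervals from limma, coloured marks below them the values under median-of-ratios, quantile and cardiomyocyte marker scaling, and dotted lines the threshold of 0.5. Ankrd1, Xirp2 and Fhl1 stay above 0.5 under all 4, Ankrd2 drops to 0.47 under quantile normalization, and the other 5 stay between the dotted lines.

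ANG II 3 was the lowest ANG II library for Ankrd1, Xirp2, Nrap and Fhl2. It also had the largest share of mitochondrially encoded fragments in its group, 21.8%, and the highest summed level of 6 atrial markers, 265 FPKM, against 160, 96.02 and 80.96 FPKM in ANG II 1, 2 and 4. In control the same sum was 19.1 to 74.3 FPKM. Of the 6 atrial markers 5 were tested and 2 were called higher, Sln and Dkk3, where 14.0% of all genes were. By voom 4 were (18.9% of all), and 4 were higher at an unadjusted p-value under 0.05 (35.9% of all). Myl4 and Myl7 were 2.23 and 2.38 higher on the log2 scale (limma adjusted p = 0.0557 each). Their groups were separate, but only narrowly. Myl4 was at 26.3 FPKM in ANG II 4 against 25.2 in control 1, and Myl7 at 21.7 against 21.1 in control 2. Stard10, also tested, went the other way, averaging 17.1 FPKM with saline but 13.8 with ANG II, and its groups overlapped. Its log2 fold change was -0.32 (limma adjusted p = 0.197), and Bmp10 was at 0 in 6 of 8 libraries. The part of these markers in the results was not tested. Without ANG II 3, the log2 fold change of Ankrd1 was 1.62 and that of Xirp2 1.18. Of 13 skeletal muscle markers, the fast myosin genes Myh1, Myh2 and Myh4 were at 0 in 6, 6 and 8 of the 8 libraries. Of the 7 tested, 2 were called higher, Tnnt3 and Mybpc2, beside 14.0% of all tested genes. The summed level of the list was 12.1 to 17.8 FPKM in control and 26.1 to 39.9 FPKM in ANG II. Most of it was Mybpc2, which averaged 9.6 and 25.5 FPKM, and the median log2 fold change of the list was 0.16.

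The genes were next set against the muscle cell background of each library, by dividing each by the geometric mean of the 16 cardiomyocyte markers. That mean was 1894 ± 30.6 FPKM in the controls and 1653 ± 81.7 FPKM under ANG II (two-sided exact permutation p = 0.0286). Relative to it Ankrd1 stood 1.73 higher in ANG II on the log2 scale, Xirp2 1.27 and Fhl1 1.03 higher, each with separate groups (exact two-sided permutation p = 0.0286 each). The order of the 3 was the same as with the deposited values. Nrap was 0.41 higher, Xirp1 0.33, Csrp3 0.23 and Fhl2 0.17, also with separate groups and p = 0.0286 each in the exact two-sided permutation test. Ankrd23 was 0.12 higher with overlapping groups (exact permutation p = 0.657), and Ankrd2 2.17 higher (p = 0.0286). Such separation was seen for 8 of the 9 genes, and 42.5% of all tested genes were likewise separate and higher on this scale. The p-values are for 9 single comparisons and were not adjusted. When 1 library was left out, Ankrd1, Xirp2 and Fhl1 stayed at p = 0.0286 in the exact permutation test. The exact permutation p rose to 0.0571 for Csrp3 without ANG II 1 (0.20) or 3 (0.21), for Fhl2 without ANG II 1 (0.14) and for Nrap without any control (0.40 to 0.42). It rose to 0.0571 for Ankrd2 without any library but control 4 and ANG II 2 (2.01 to 2.10), and to 0.0857 for Xirp1 without any ANG II library (0.32 to 0.35). Without control 2 the value of Xirp1 dropped to 0.18, with p still 0.0286 in the exact permutation test. Groups that were separate stay separate when 1 library is left out, as in all of these cases. With 4 against 3 libraries the exact permutation p can exceed 0.0286 even for separate groups. These rises therefore do not measure a loss of separation.

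**Figure D4:**
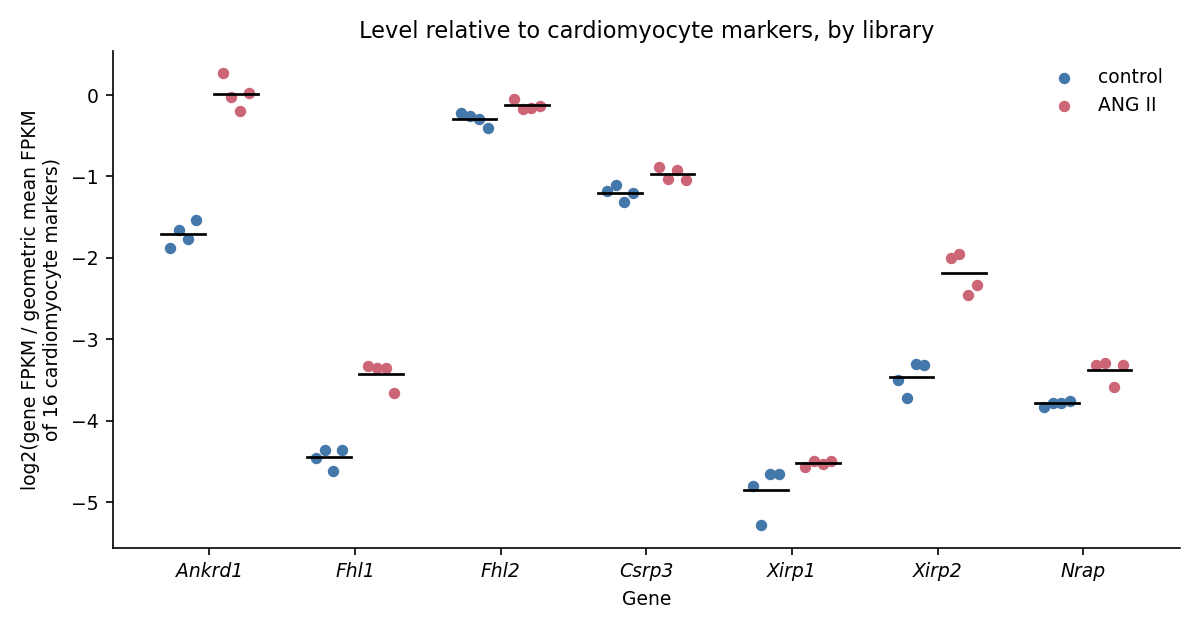
Log2 of each gene's FPKM over the geometric mean FPKM of 16 cardiomyocyte markers in the same library, for the 7 genes above 1 FPKM (4 control libraries in blue, 4 ANG II in red, group means as bars). Ankrd1 reaches the level of the marker mean in ANG II, at 0.02, from -1.71 in control, while Fhl2 and Csrp3 move by 0.17 and 0.23.

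Close relatives outside the 9 genes were examined as a list of 8, of which 7 were tested. In this list 4 rose and 0 fell, where 14.0% and 1.41% of all tested genes did (4 and 0 also by voom, which called 18.9% and 2.03% of all). At an unadjusted p-value under 0.05, 4 were higher and 1 lower, beside 35.9% and 7.09% of all genes. The list had a median log2 fold change of 0.63 against 0.15 over all genes. Csrp2, a LIM protein related to Csrp3, rose from 16.4 ± 3.72 to 57.3 ± 5.02 FPKM, by 1.77 on the log2 scale (limma adjusted p = 2.24e-05). Csrp1 rose by 0.71, Lasp1 by 0.70 and Fhl3 by 0.63, while median-of-ratios scaling called 1 gene of the list higher and 1 lower. Nebl, a nebulin relative of the cardiac Z-disc, was at 209 ± 5.05 FPKM in the controls and 172 ± 8.86 FPKM under ANG II with separate groups; its log2 fold change of -0.28 (limma adjusted p = 0.00184) was under the fold threshold.

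Among 33 partners of the Z-disc and the titin spring, 32 were tested, 9 rose and 0 fell, beside 14.0% and 1.41% of all tested genes (9 and 0 by voom, beside 18.9% and 2.03%). At an unadjusted p-value under 0.05, 13 were higher and 3 lower, beside 35.9% and 7.09%. The median log2 fold change was 0.11, under the 0.15 of all genes. Synpo2l, an actin-associated Z-disc protein, rose by 1.03 (SE 0.160), Des, the intermediate filament protein of muscle, by 0.92 (SE 0.137), and Pdlim3, a Z-disc PDZ and LIM protein, by 0.91 (SE 0.134), with adjusted p-values of 7.18e-04 to 9.39e-04 by limma. Ttn itself, titin, was at 260 ± 17.7 FPKM in the controls and 239 ± 26.3 FPKM under ANG II and was not called. Trim63 averaged 151 FPKM in the controls and 113 FPKM under ANG II, with separate groups. Its log2 fold change of -0.43 (limma adjusted p = 0.00205) was under the fold threshold. With median-of-ratios scaling 3 genes of the list were called higher and 1 lower.

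YAP and TEAD proteins act in a pathway that responds to tension, for which Ankrd1 is a widely used target gene. Of 33 genes of that pathway 32 were tested, 9 rose and 0 fell, again beside 14.0% and 1.41% of all tested genes (11 and 0 by voom, beside 18.9% and 2.03%). Unadjusted p-values under 0.05 were found for 19 higher and 1 lower, beside 35.9% and 7.09%. The median log2 fold change was 0.36, against 0.15 over all genes. Ccn2, listed as Ctgf, rose from 33.8 ± 6.44 to 135 ± 27.6 FPKM, by 1.96 on the log2 scale (limma adjusted p = 3.11e-05), though a gene on the opposite strand covers 23.2% of its exons. Myof rose by 1.53 and Vgll3, a TEAD cofactor, by 1.17. In the list of SRF and MRTF pathway genes, all 19 were tested, 11 rose and 0 fell, with the same shares of all genes, 14.0% and 1.41% (12 and 0 by voom, beside 18.9% and 2.03%). Unadjusted p-values under 0.05 were found for 14 higher and 2 lower, beside 35.9% and 7.09%. Its median was 0.58, against the same 0.15. Acta1, skeletal α-actin, rose by 1.25 with overlapping groups, Fos by 1.06 and Cald1 by 0.85. Median-of-ratios scaling called 5 genes higher in the YAP and TEAD list and 4 in the SRF and MRTF list, beside 8.65% of all genes.

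Genes whose pattern was most like that of Ankrd1 were sought among 12259 genes whose mean reached 1 FPKM in each group. Likeness was the root mean square difference over the 8 libraries of log2(FPKM + 1) relative to each gene's control mean, a measure that mostly follows the size of the change between the groups. Genes named only by an ID, a Gm or RP label or a Rik name were passed over. The nearest of the others were Col6a1 (0.122) and Col6a3 (0.123), chains of type VI collagen, Ltbp3 (0.123), a latent TGF-β binding protein, Dbn1 (0.124), an actin-binding protein, and Mxra8 (0.127), a matrix remodelling-associated membrane protein. Their log2 fold changes were 1.41 to 1.56. Col6a1 went from 43.8 ± 6.54 to 131 ± 11.8 FPKM, at a level far under that of Ankrd1. Of the 9 stretch-sensor genes, Xirp2 was nearest to Ankrd1, with a difference of 0.372, which would place it 283rd when the genes passed over are counted.

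**Figure D5:**
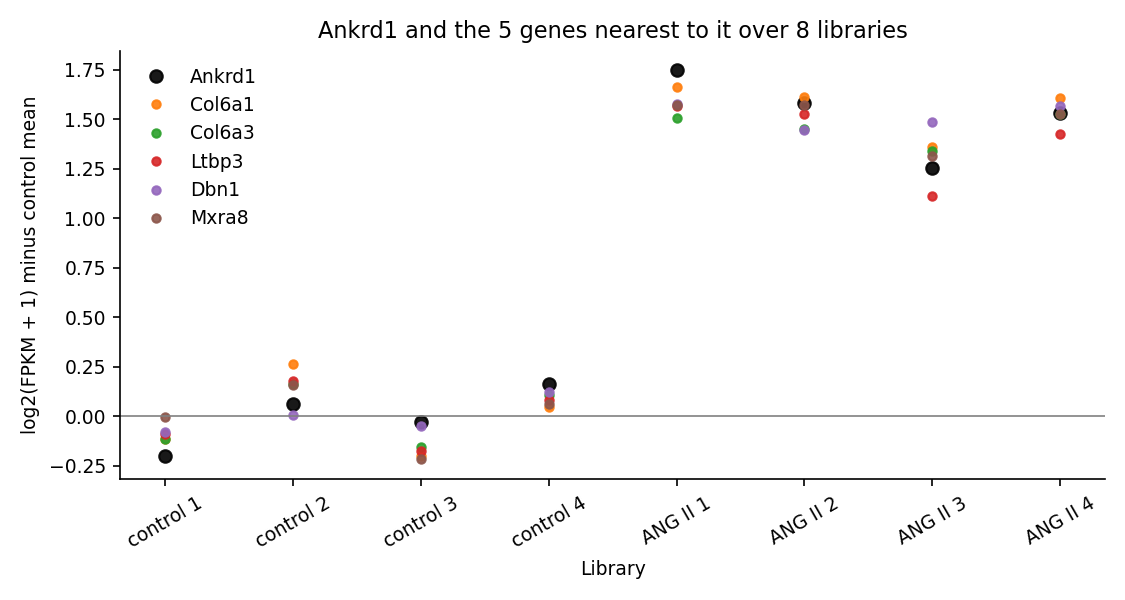
Log2(FPKM + 1) minus the gene's own control mean for Ankrd1 (black) and the 5 genes nearest to it after the exclusions in the text, in each of the 4 control and 4 ANG II libraries. In ANG II all 6 genes lie between 1.11 and 1.75, and Ankrd1 is lowest in ANG II 3 within its group.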

How the data were processed

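RNA-seq was carried out on 8 left ventricle libraries, enriched on oligo(dT) beads and sequenced as paired ends per the study's methods. The values used here came from 1 deposited table of FPKM values, each column holding 1 library. The submitters' processing notes name HISAT, Bowtie2 and RSEM without versions or roles. The genome build, annotation and strand use were not given in the sources used here. Gene positions and mean transcript lengths came from GENCODE M21 (GRCm38), which holds 55141 of the 55679 gene IDs. FPKM times mean length fell on multiples of 1 step per library, whole within 0.05 for at least 99.2% of values under 60 fragments in single-exon genes and 97.6% in genes with several exons, as all 9 genes are, and this step gave the fragments.

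Groups were compared with limma 3.58.1 in R 4.3.3 (empirical Bayes, trend on) using log2(FPKM + 1) of the 19364 genes averaging 0.1 FPKM or more, with no replicate block. P-values were two-sided and Benjamini-Hochberg adjusted over all tested genes. Single values were compared by exact permutation over 70 allocations (Python 3.11.15, scipy 1.17.1, statsmodels 0.14.6). The limma comparison was tested on simulated data with known fold changes. All 9 genes are named, with up to 3 called genes of each pathway list and the 5 genes nearest to Ankrd1 after the exclusions given above. Fhl3, Nebl, Ttn, Trim63, Tpm1 and markers named beside them were chosen after their values were seen. The members and lists were chosen with earlier results of these data known. Alternatives changed the pseudocount, filter, scaling, variance trend, replicate block, thresholds and libraries 1 at a time, with voom on recovered fragments. No protein sequences were used here. Counting intervals cover counting error only, since no molecular identifiers are named.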

Additional observations from a re-analysis of the deposited data

Results flagged for a closer look

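In 3 of 18 groups of 4 libraries (9 genes in 2 conditions), 1 library lay far from the other three by the gap between it and its neighbour over the range of the group, past its 95% critical value; chance marks about 1 in 20 such groups. Control 4 had the highest Ankrd2 value of its group, 0.409 FPKM, where the other controls held 0.162 to 0.185 FPKM, a difference between 7 and 3 fragments. Control 4 also had the lowest Fhl2 value of the controls, 1429 FPKM, against 1572 to 1593 FPKM. Control 1 had the lowest Nrap value of the controls, 130 FPKM, against 139 to 140 FPKM.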

How the results depend on the processing

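Of 20 settings, 17 called 4 of the 9 genes higher; a fold threshold of 1 called 2, and quantile normalization and a filter of 1 FPKM, which removed Ankrd2, called 3. Ankrd1 and Xirp2 were called in all 20 settings run for them. Among 178 single-gene values 163 kept direction and call, 3 kept direction only and 12 reversed, all in genes that were not called. Reversed values were, with cardiomyocyte marker scaling, 0.049 for Ankrd23 and 0.17 for Fhl2; with median-of-ratios scaling, -0.20 for Csrp3, -0.10 for Xirp1 and -0.015 for Nrap; with quantile normalization, -0.046 for Xirp1; and without mitochondrially encoded and top 10 genes, -0.12 for Csrp3 and -0.017 for Xirp1. Leaving out 1 library gave -0.11 to 0.041 for Ankrd23, -0.067 to 0.0015 for Fhl2 and -0.012 to 0.20 for Xirp1, and relative to the cardiomyocyte markers -0.036 to 0.29 for Ankrd23. Of the 90 values relative to those markers 63 kept direction and call, 25 kept direction only and 2 reversed. Part of the 25 came from permuting within the replicate block, where an exact p under 0.125 cannot occur, so the loss was fixed beforehand. The rest came from leaving out 1 library, where the exact test of 4 against 3 is coarse. The 25 therefore do not measure how fragile these values are.

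List counts moved by over 1.5 times as follows. Related family genes higher were 1 with median-of-ratios scaling and 1 at a fold threshold of 1, and lower 1 with median-of-ratios scaling and 1 without a fold threshold. Z-disc partners higher were 3 with median-of-ratios scaling, 4 with quantile normalization, 4 without mitochondrially encoded and top 10 genes and 1 at a threshold of 1; lower were 1, 1 and 1 under the same 3 scalings and 3 without a threshold. YAP and TEAD genes higher were 5, 4 and 5 under those scalings, 17 with cardiomyocyte marker scaling, 17 without a threshold and 3 at a threshold of 1; lower were 1 with quantile normalization and 1 without a threshold. SRF and MRTF genes higher were 4, 4 and 7 under the 3 scalings and 2 at a threshold of 1; lower were 1 with median-of-ratios scaling, 1 with quantile normalization and 1 without a threshold. The causes were not tested.

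Libraries with the same number did not clearly deviate together (correlations -0.0123, 0.0921, -0.0433 and 7.36e-04 over 12947 genes). This cannot exclude a pairing, and the labels name none. With a replicate block in limma 4 of the 9 genes were called higher and 0 lower. Permuted within the replicate block, the family ratios of 0.86, -0.94 and 0.0783 had an exact p of 0.125, the smallest such a design can give. The share of Ankrd1 in its family differed by 0.055 to 0.097 percentage points when 1 library was left out, with an exact permutation p of 0.0571 without any 1 ANG II library. The groups stayed separate there too, and unequal group sizes alone can raise the exact p. Ankrd2 and Ankrd23 rested on at most 25 fragments per library, which limits what can be read from them.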

Other observations

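Of the 7 tested genes of the skeletal muscle list, 2 were called higher with ANG II, beside 14.0% of all tested genes. The median log2 fold change of the list was 0.16, near the 0.15 of all genes, and the fast myosin heavy chains were at or near 0. Mybpc2, the fast form of myosin-binding protein C, rose from 9.6 to 25.5 FPKM on average (log2 fold change 1.33, limma adjusted p = 5.85e-04), and Tnnt3, fast troponin T, from 0.728 to 3.29 FPKM (1.28, adjusted p = 0.00186). Both had separate groups, as had 28.7% of all tested genes with ANG II higher. Mylpf, Tnni2, Pvalb, Atp2a1 and Myoz1 were tested and not called. The rise of Ankrd2, another gene best known from skeletal muscle, was measured in the same libraries at a lower level.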
